A study of Homo sapiens with 6 samples.

Results

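Disulfide isomerases and endoplasmic reticulum (ER) oxidases were examined in KYSE150 cells, an established human esophageal squamous cell carcinoma (ESCC) line. The 10 genes were chosen by name: 8 isomerases or thioredoxin-fold proteins of the ER (P4HB, PDIA3, PDIA4, PDIA5, PDIA6, TXNDC5, TXNDC11 and ERP44) and 2 oxidases (ERO1A and ERO1B). All 10 were found among the 67140 gene identifiers of the deposited table, and all 10 passed the filter on low counts. The study compared 3 samples of cells carrying shCtrl, a control hairpin, with 3 samples of cells carrying shAC007128.1, a hairpin against the lncRNA AC007128.1, to learn which transcripts depend on this lncRNA. Both groups were grown in RPMI medium with fetal bovine serum, and the study's stable lines were made with lentivirus and puromycin. Each group rests on 1 hairpin, so what the hairpin, the line or its growth state contributes and what loss of AC007128.1 contributes cannot be told apart. Because whole cultures were sequenced, fewer cells of one state and less RNA per cell cannot be told apart either. The labels do not say whether samples came from separate cultures, so the p-values measure only the spread between these samples, which may be technical.

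Proteins that are secreted or sit on the cell surface are folded in the ER, where disulfide bonds are formed between their cysteines. Isomerases of the PDI family place and rearrange these bonds through thioredoxin-like domains. ERO1 enzymes reoxidise the isomerases and pass the electrons to oxygen, which makes hydrogen peroxide. Many genes of this machinery are induced by the unfolded protein response, which runs through the sensors ATF6, IRE1 (with its target XBP1) and PERK (with its target ATF4), and ERO1A is also known as a hypoxia-inducible gene.

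Total counts were 65140326 to 78610457 in the shCtrl samples and 55764405 to 60158244 in the shAC007128.1 samples, so the groups did not overlap in depth. AC007128.1 (ENSG00000229970) was identified as the 1 gene that matches the 19 target bases of the hairpin, and 42.2% of its exonic bases are shared with other annotated genes. The 3 shCtrl samples held 69, 33 and 53 counts of it, and the 3 shAC007128.1 samples 18, 37 and 15, with overlap. Its log2 fold change was -0.77 (standard error, SE, 0.51, with edgeR adjusted p = 0.271), so a depletion was not detected in these counts at this depth. By qPCR, a separate measure, the paper reports that the hairpin did lower AC007128.1. The squamous label was checked with 9 markers, all of which were tested. Their summed level was 1543 to 1600 counts per 1000000 in shCtrl and 2608 to 3094 in shAC007128.1 samples. KRT14, KRT6A and PERP were called higher in shAC007128.1 cells and DSG3 lower. The leukocyte marker MS4A1 was at 0 in every sample, PTPRC reached at most 9 counts in any sample and CD3E at most 54. Of the fibroblast markers, DCN reached at most 8 counts and PDGFRB at most 51, but COL1A1 had 946 to 1091 counts in every sample. CD68, found in macrophages and also in epithelial lysosomes, fell from 63.8 ± 4.47 to 17.5 ± 5.27 counts per 1000000 (SD, n = 3). The 4 leukocyte markers, 2 of which were tested, summed to 59.1 to 68.0 in shCtrl and 14.4 to 23.8 in shAC007128.1 samples, nearly all of it CD68. The 5 fibroblast markers (2 tested) summed to 14.1 to 15.5 and 17.01 to 18.9, nearly all of it COL1A1. COL1A1 rose by 0.33 on the log2 scale (edgeR adjusted p = 0.0462), and PDGFRB was called lower (-1.60, edgeR adjusted p = 0.0474). The 3 endothelial markers (2 tested) summed to 2.12 to 3.11 and 0.302 to 2.02. Genes of the mitochondrial genome took 9.69 to 10.2% of counts in shCtrl samples and 7.68 to 9.72% in shAC007128.1 samples. Apart from depth, the part of these differences in the results that follow was not tested.

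Promoter sequences of PDIA4 and PDIA6, which fell most, are shown first, with those of P4HB, ERO1B and TXNDC5 for the elements they hold, because several elements bound by the transcription factors of the unfolded protein response are known by their letters. RefSeq windows from 250 bases before to 50 bases after an annotated start (GRCh38.p14) were matched for 9 of the 10 genes, in 12 windows. PDIA3 had no window and was not searched. The ER stress response element was searched as CCAAT, then 9 bases of any kind, then CCACG, on both strands. It occurred in 27 of 35116 windows of all genes (0.0769%) and in 2 of the 12 windows here, window 2 of PDIA6 and the window of ERO1B. Window 1 of PDIA6, at another start, held none. Bases that GENCODE annotates as untranslated exon were left out of the stretches shown. The first is the longest remaining stretch upstream of the PDIA6 start that holds the element (chr2:10812840-10813035, minus strand). The second is that of window 1 of PDIA4, the gene with the largest fall (chr7:149028663-149028740, minus strand). The third is that of P4HB, which fell least of the genes past the test (chr17:81860625-81860698, minus strand). The fourth surrounds the ERO1B match, which lies in reverse orientation (chr1:236282163-236282208, minus strand). All are written 5′ to 3′ along the gene, and capitals mark each CCAAT box on either strand and the whole ER stress response element.
PDIA6: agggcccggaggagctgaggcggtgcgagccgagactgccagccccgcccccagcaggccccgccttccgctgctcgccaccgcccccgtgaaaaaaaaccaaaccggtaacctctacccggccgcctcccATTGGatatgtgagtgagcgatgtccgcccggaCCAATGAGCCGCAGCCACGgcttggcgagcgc
PDIA4: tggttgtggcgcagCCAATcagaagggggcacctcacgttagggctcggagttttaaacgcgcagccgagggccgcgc
P4HB: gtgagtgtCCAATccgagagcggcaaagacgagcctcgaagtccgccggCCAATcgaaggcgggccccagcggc
ERO1B: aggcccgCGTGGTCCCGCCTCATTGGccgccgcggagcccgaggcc

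The element of PDIA6 began 86 bases before the start, at position 10812853 to 10812871 of chromosome 2, and that of ERO1B lay at 236282183 to 236282201 of chromosome 1. Window 1 of PDIA4 and the window of P4HB each held 3 CCAAT boxes and no complete element, whereas window 2 of PDIA4 held 1 box. At least 3 such boxes were thus found in 2 of the 12 windows, where 3.26% of all windows held as many. A CCAAT box is part of the ER stress response element, so both searches overlap. The count of boxes and TGACGTG, the core of the unfolded protein response element, were added to the search after the windows had been seen. TGACGTG was found in 2 of the 12 windows, window 2 of TXNDC5 and the window of TXNDC11, against 1.97% of all windows. Window 1 of TXNDC5 held none, and in TXNDC11 it lay 5 bases after the start. The TXNDC5 match with its flanks (chr6:7910143-7910189, minus strand) is shown with the core in capitals.
TXNDC5: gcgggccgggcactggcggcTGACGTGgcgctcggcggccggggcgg

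The window of ERO1A, the gene that rose, held no CCAAT box, no ER stress response element and no TGACGTG. All 250 bases before its RefSeq start are annotated by GENCODE as untranslated exon, so sequence further upstream was not searched. The hypoxia response cores ACGTG and GCGTG, the first of which overlaps TGACGTG, occurred 1 and 2 times in it on either strand. They were not particular to ERO1A, since each occurred in windows of 7 of the 9 genes, with ACGTG 3 times in PDIA5 and GCGTG 3 times in TXNDC11. Of the 12 windows 7 held ACGTG and 8 held GCGTG, and among all windows 21.4% held ACGTG and 36.5% held GCGTG.

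Between shAC007128.1 and shCtrl cells, 5 of the 10 genes fell, 1 rose and 4 did not pass the test, which was edgeR's quasi-likelihood test over 19254 genes, passed at 0.05 or less after Benjamini-Hochberg adjustment. PDIA4 fell to 33.8% and PDIA6 to 50.3% of the shCtrl mean, PDIA3, TXNDC11 and P4HB fell less, and ERO1A rose 1.54-fold. Among all genes tested, 19.8% passed the test as lower and 21% as higher. With the added limit of a 2-fold change set in the study's methods, 1 of the 10 genes, PDIA4, was called lower, where 10.1% of all genes were. No gene of the 10 was called higher, where 5.57% of all genes were. edgeR, DESeq2 and limma-voom all gave 0, and at an unadjusted p under 0.05 the count was also 0 with this fold limit. The groups did not overlap for 5 genes that were lower and 1 that was higher, where 28.2% and 27% of all genes tested were separated in these directions. The median log2 fold change was -0.25 over the 10 genes and -0.02 over all genes tested.

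**Figure D1:**
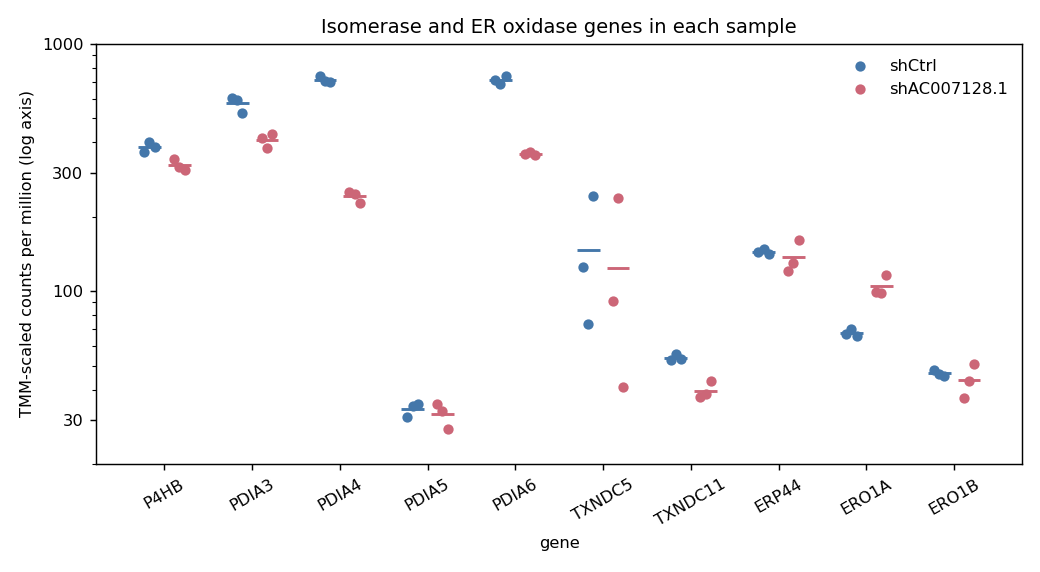
TMM-scaled CPM, counts per 1000000 (log axis), of the 10 genes in each of the 3 shCtrl and 3 shAC007128.1 samples, with a line at each group mean. PDIA4 and PDIA6 sit far below shCtrl in all 3 shAC007128.1 samples, ERO1A sits above, and the TXNDC5 samples are scattered in both groups.

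PDIA4 (ENSG00000155660, chromosome 7, 149003062 to 149028662, minus strand, hg38), an isomerase with an additional catalytic domain, changed most. Its scaled level, in counts per 1000000 counts (CPM) after TMM scaling, was 741, 706 and 705 in shCtrl replicates 1, 2 and 3. It was 252, 247 and 228 in shAC007128.1 replicates 1, 2 and 3. Every shAC007128.1 sample was thus below every shCtrl sample by more than the spread within either group. The level went from 717 ± 21 CPM (SD, n = 3) to 243 ± 12.5, a log2 fold change of -1.56 (SE 0.06, edgeR adjusted p = 1.62e-05). Over 16 alternative settings the change ranged from -1.64 to -1.53 and was called in all 16. In libraries thinned to the smallest total it was -1.56. None of its exonic bases is shared with another annotated gene. Among the 580 tested genes with a mean level of at least 8 on the log2 CPM scale, 13 including PDIA4 had a log2 fold change as low or lower.

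PDIA6 (ENSG00000143870, chromosome 2, 10783391 to 10837977, minus strand), an isomerase that works with the chaperone BiP, had 718, 690 and 741 CPM in shCtrl cells and 360, 367 and 354 CPM in shAC007128.1 cells. All 3 shAC007128.1 samples lay close together and below every shCtrl sample. The means were 716 ± 25.5 and 360 ± 6.30 CPM (SD, n = 3), a log2 fold change of -0.99 (SE 0.06, edgeR adjusted p = 3.97e-05). This lies just inside the 2-fold limit, so PDIA6 fell but was not called. It was called in 8 of the 16 alternatives, among them DESeq2 (-1.001), scaling by library size only (-1.06), and the fits without shAC007128.1 replicate 2 (-1.001) or without shCtrl replicate 2 (-1.02). ATP6V1C2, on the opposite strand, shares 1033 of its 4096 exonic bases.

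PDIA3 (ENSG00000167004, chromosome 15, 43746394 to 43773279, plus strand) acts on glycoproteins together with calnexin and calreticulin and is part of the MHC class I peptide loading complex. It had 606, 594 and 524 CPM in shCtrl cells and 417, 380 and 431 CPM in shAC007128.1 cells, without overlap. The log2 fold change was -0.49 (SE 0.08, edgeR adjusted p = 0.00281). Its processed copy PDIA3P1 was at 2.35 to 3.08 CPM in all 6 samples, 0.394 to 0.695% of the level of both, and summing both, chosen after seeing the data, gave -0.49 as well. ELL3, on the opposite strand, shares 622 of its 11774 exonic bases.

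P4HB (ENSG00000185624, chromosome 17, 81843159 to 81860856, minus strand) is the archetypal isomerase and also a subunit of collagen prolyl 4-hydroxylase. It had 366, 401 and 383 CPM in shCtrl cells and 341, 319 and 309 CPM in shAC007128.1 cells. The groups did not overlap, but the gap between 341 and 366 CPM was no wider than the range within either group. The log2 fold change was -0.25 (SE 0.07, edgeR adjusted p = 0.0239). It no longer passed the test without shAC007128.1 replicate 2 (adjusted p = 0.0734), without shCtrl replicate 2 (adjusted p = 0.0983) or without shCtrl replicate 3 (adjusted p = 0.075), and over all alternatives its adjusted p ranged from 0.00885 to 0.0983.

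TXNDC11 (ENSG00000153066, chromosome 16, 11679083 to 11742857, minus strand), a membrane-bound thioredoxin-fold protein first known as a partner of the dual oxidases, was less abundant. Its level was 52.6, 55.6 and 53.1 CPM in shCtrl cells and 37.3, 38.2 and 43.4 CPM in shAC007128.1 cells. The fall to 73.7% of the shCtrl mean had a log2 fold change of -0.44 (SE 0.09, edgeR adjusted p = 0.00699). It passed the test in all 16 alternatives, from -0.52 to -0.40.

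PDIA5 (ENSG00000065485, chromosome 3, 123067025 to 123225227, plus strand), which has been linked to activation of ATF6, did not pass the test. It had 31.1, 34.4 and 35.04 CPM in shCtrl cells and 34.9, 32.8 and 27.6 CPM in shAC007128.1 cells (log2 fold change -0.08, SE 0.11, edgeR adjusted p = 0.623). ERP44 (ENSG00000023318, chromosome 9, 99979185 to 100099052, minus strand), which retains ERO1 enzymes and other proteins in the early secretory pathway, had 144, 149 and 141 CPM against 121, 130 and 161 CPM. Its groups overlapped because shAC007128.1 replicate 3 was above all shCtrl samples while the other two were below them. The log2 fold change of ERP44 was -0.08 (SE 0.11, edgeR adjusted p = 0.624). Without shAC007128.1 replicate 3 it was -0.22 and passed the test (adjusted p = 0.019), and without shAC007128.1 replicate 1 it was 0.01 (adjusted p = 0.971).

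TXNDC5 (ENSG00000239264, chromosome 6, 7881517 to 7910788, minus strand), an isomerase that introduces disulfide bonds rapidly, varied more between replicates than between groups. It had 126, 73.7 and 243 CPM in shCtrl cells and 90.9, 239 and 40.9 CPM in shAC007128.1 cells, with coefficients of variation of 58.8% and 83.4%. The overlapping readthrough gene BLOC1S5-TXNDC5, which shares 2658 of the 4361 exonic bases of TXNDC5, had 127, 127 and 0 CPM in shCtrl cells and 81.7, 0 and 145 CPM in shAC007128.1 cells. The pair was thus split unevenly, and the readthrough was listed at 0 exactly in the samples in which TXNDC5 was highest in its group. The sum of both, an alternative chosen after seeing the data, was 252, 201 and 243 CPM in shCtrl cells and 173, 239 and 186 CPM in shAC007128.1 cells. The groups overlapped, and the log2 fold change of the sum was -0.22 (SE 0.14, edgeR adjusted p = 0.261), against -0.25 (SE 0.65, adjusted p = 0.786) for TXNDC5 alone. Without shCtrl replicate 3 the value for TXNDC5 alone turned to 0.31 and without shAC007128.1 replicate 2 it was -1.16, so the count of this gene is uncertain.

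ERO1A (ENSG00000197930, chromosome 14, 52639915 to 52695900, minus strand), the more widely expressed of the ER oxidases, rose. PDIA4, PDIA6, PDIA3, TXNDC11 and P4HB went the other way, and PDIA5, ERP44 and TXNDC5 did not pass the test. It had 67.4, 70.4 and 65.6 CPM in shCtrl cells and 99.0, 98.4 and 117 CPM in shAC007128.1 cells. All 3 shAC007128.1 samples were above all shCtrl samples. The log2 fold change was 0.63 (SE 0.09, edgeR adjusted p = 0.0016), and it passed the test in all 16 alternatives, from 0.53 to 0.67. The lncRNA ENSG00000258757 on the opposite strand shares 581 of its 7549 exonic bases. ERO1B (ENSG00000086619, chromosome 1, 236214681 to 236282019, minus strand), an oxidase best known from secretory tissues such as the pancreas, had 47.9, 46.3 and 45.3 CPM against 36.9, 43.4 and 50.6 CPM. Its log2 fold change was -0.09 (SE 0.12, edgeR adjusted p = 0.588). As with ERP44, shAC007128.1 replicate 1 was the lowest and replicate 3 the highest of all samples, and without replicate 1 the value was 0.02.

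**Figure D2:**
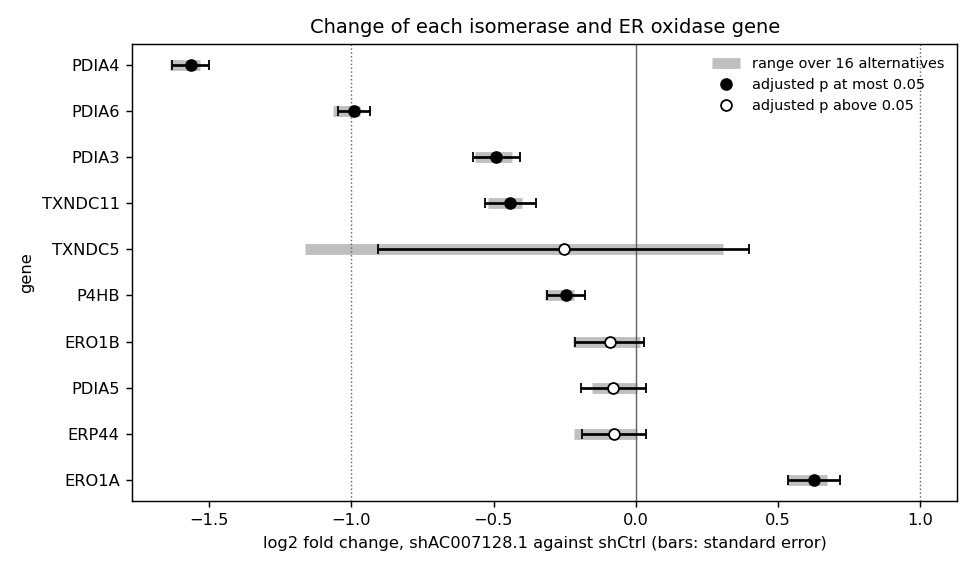
Log2 fold change of each gene between shAC007128.1 and shCtrl cells (points, bars for the standard error, filled where the adjusted p was at most 0.05), with the range over 16 alternatives as a grey band and dotted lines at 2-fold. PDIA4 at -1.56 is the gene beyond the limit, PDIA6 lies on it at -0.99, and ERO1A at 0.63 is the filled point on the right.

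Ratios of counts within a sample do not depend on how libraries are scaled, so they were used to compare the genes with each other. The PDIA4 to P4HB ratio was 2.03, 1.76 and 1.84 in shCtrl cells and 0.739, 0.774 and 0.739 in shAC007128.1 cells. For PDIA6 to P4HB it was 1.96, 1.72 and 1.94 against 1.06, 1.15 and 1.15. PDIA4 also fell relative to PDIA6, from 1.003 ± 0.0447 to 0.673 ± 0.0277 (SD, n = 3), without overlap. In contrast, PDIA3 to P4HB overlapped between the groups, at 1.37 to 1.66 in shCtrl and 1.19 to 1.40 in shAC007128.1 cells. The ratio of ERO1A to PDIA4 went from 0.0946 ± 0.00462 to 0.434 ± 0.0666 (SD, n = 3), and that of ERO1A to ERO1B from 1.46 ± 0.0574 to 2.42 ± 0.23. With 3 samples against 3, the exact two-sided permutation test cannot go below p = 0.1, which 7 of the 8 ratios computed reached, PDIA3 to P4HB being the exception at p = 0.2. The ratios of ERO1A to P4HB, PDIA6 and PDIA4 had to reach it, because ERO1A was separated upward and those genes downward. The ratios were not among the planned tests, so this count is a description and not added evidence.

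**Figure D3:**
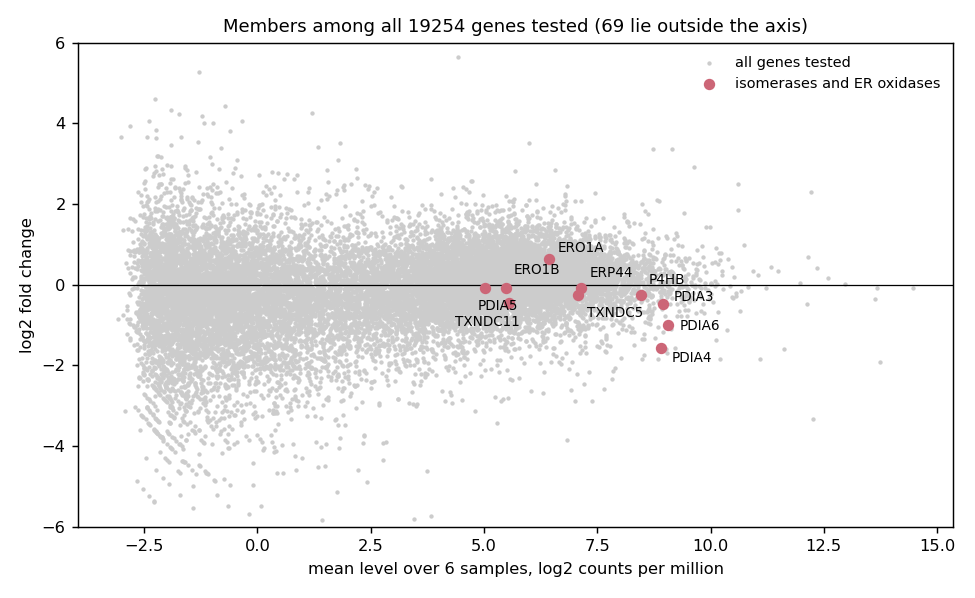
Log2 fold change against mean level for the 19254 genes tested (grey, with 69 outside the axis) and the 10 isomerase and ER oxidase genes (red). The abundant isomerases lie on the right at or below 0, with PDIA4 and PDIA6 lowest, and ERO1A is above 0.

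Levels of different genes were compared per length, as transcripts per 1000000 transcripts (TPM) over the Ensembl canonical transcript, a length chosen after seeing that unions of exons reach 11132 bases for P4HB against 2437. In shCtrl cells the order was PDIA6 (650 ± 31.8 TPM, SD, n = 3), PDIA4 (536 ± 8.21), P4HB (325 ± 18.4), PDIA3 (323 ± 19.2), TXNDC5 (104 ± 63.1), ERP44 (62.2 ± 1.59), PDIA5 (37.6 ± 3.09), TXNDC11 (35.7 ± 1.35), ERO1A (27.3 ± 0.912) and ERO1B (19.3 ± 0.168). P4HB and PDIA3, and PDIA5 and TXNDC11, did not differ beyond their spread, and neither did TXNDC5 and its neighbour ERP44. In shAC007128.1 cells PDIA6 was still first (320 ± 9.32 TPM), PDIA4 had moved to the fourth place (177 ± 8.503) behind P4HB (268 ± 10.3) and PDIA3 (225 ± 12.9), and ERO1A (41.2 ± 4.25) stood above PDIA5 (34.8 ± 3.88) and TXNDC11 (25.7 ± 2.33). Lengths decide part of this order, because with the union of exons, the length planned first, PDIA4 was first in shCtrl cells (692 ± 13.1 TPM) and P4HB was at 109.5 ± 5.93.

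Summed over the 8 isomerases, the canonical-length level was 2036, 2017 and 2167 TPM in shCtrl cells and 1169, 1278 and 1132 TPM in shAC007128.1 cells. The shAC007128.1 mean was 0.576 of the shCtrl mean, and 0.514 with the union of exons. For the 2 oxidases the sum was 46.0, 47.5 and 46.1 TPM against 52.9, 57.2 and 66.6 TPM. The oxidase sum thus equalled 2.13 to 2.35% of the separate isomerase sum in shCtrl cells and 4.47 to 5.88% in shAC007128.1 cells. Within the isomerase sum over canonical transcripts, PDIA4 made up 24.8 to 26.7% in shCtrl and 14.3 to 15.5% in shAC007128.1 samples, and P4HB 14.95 to 16.8% and 21.0 to 23.8%. TXNDC5, whose own count is uncertain, made up 2.57 to 8.05% in shCtrl and 2.49 to 13.1% in shAC007128.1 samples. In each group the largest isomerase sum was in the sample in which TXNDC5 was highest. Part of the spread of the sums and shares within a group therefore comes from TXNDC5. These sums describe the samples and were given no test.

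**Figure D4:**
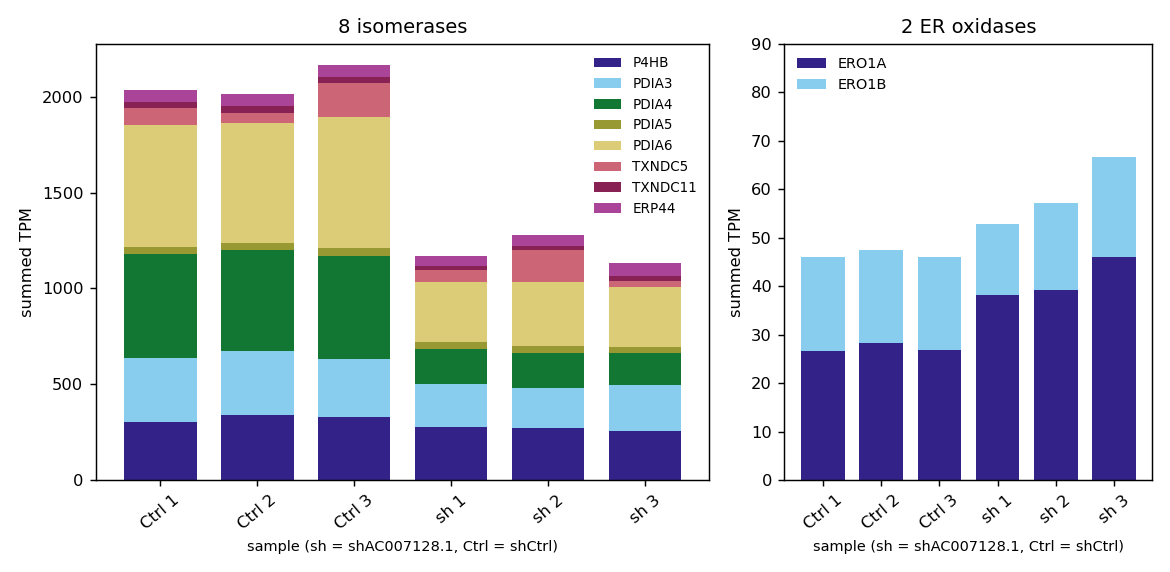
Stacked TPM over the Ensembl canonical transcript in each sample, for the 8 isomerases (left) and the 2 ER oxidases (right, on its own scale). The isomerase bars reach 2017 to 2167 TPM in shCtrl and 1132 to 1278 TPM in shAC007128.1 samples, while the oxidase bars go from 46.0 to 47.5 up to 52.9 to 66.6 TPM.

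Other thioredoxin-fold and cysteine-rich proteins of the ER changed in both directions. Of 19 listed genes 15 were tested, 2 fell and 4 rose, 2 and 1 of them by at least 2-fold, and the median log2 fold change was -0.16. CRELD1 (log2 fold change -1.67, SE 0.13, edgeR adjusted p = 0.000126) and CRELD2 (-1.03, SE 0.18) fell, the latter a gene known to be induced by ER stress. TXNDC16, a thioredoxin-domain protein of the ER, rose from 6.42 ± 0.948 to 16.5 ± 4.01 CPM (SD, n = 3), a log2 fold change of 1.36 (edgeR adjusted p = 0.0018). Of the membrane-bound thioredoxin-related proteins, TMX4 rose by 0.24 on the log2 scale (edgeR adjusted p = 0.0469), and TMX1, TMX2 and TMX3 did not pass the test, at -0.04, -0.24 and -0.15.

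Among 16 tested enzymes for other routes of thiol oxidation and reduction, 6 fell and 5 rose. H6PD, which makes NADPH inside the ER, was called lower, from 74.7 ± 1.51 to 21.7 ± 2.82 CPM (SD, n = 3), a log2 fold change of -1.78 (edgeR adjusted p = 5.07e-05). PRDX4, a peroxiredoxin that uses hydrogen peroxide to oxidise isomerases, rose by 0.77 on the log2 scale (SE 0.07, edgeR adjusted p = 0.000216), and the disulfide-forming oxidase QSOX1 by 0.81 (SE 0.08, edgeR adjusted p = 0.000293). VKORC1L1, a vitamin K epoxide reductase of the ER, rose by 0.65. The QSOX1 paralogue QSOX2 fell by 0.27 on the log2 scale (edgeR adjusted p = 0.0365). TXNRD1, a cytosolic thioredoxin reductase, fell by 0.64 (edgeR adjusted p = 0.000157). The 3 rises named here and that of ERO1A were all under 2-fold.

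Partners of the 10 genes were mostly lower: of 15 tested, 9 fell, 5 of them by at least 2-fold, and 1 rose. HSPA5, which encodes BiP, the partner of PDIA6, fell from 8929 ± 147 to 891 ± 40.9 CPM (SD, n = 3), a log2 fold change of -3.33 (SE 0.05, edgeR adjusted p = 4.91e-07). CANX and CALR, the lectin chaperones that work with PDIA3, fell by 1.84 and 0.77 on the log2 scale. Of the prolyl hydroxylase subunits that pair with P4HB, P4HA1 fell by 0.49 (edgeR adjusted p = 0.00773) and P4HA2 did not pass the test (0.12). The dual oxidase genes tied to TXNDC11 were scarce. DUOXA1 had counts of 40, 41 and 55 in shCtrl cells and 0 in all shAC007128.1 samples. Against a floor of 3 counts per library this would be 11.7-fold lower, but a count here may not be 1 fragment. The size of its fall is therefore uncertain. DUOX2 had 34, 52 and 23 counts against 3, 0 and 0. The median log2 fold change of the partners was -0.77.

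The genes of the unfolded protein response known from the ATF6 and XBP1 branches fell together with PDIA4 and PDIA6. Of 16 tested, 14 fell, 10 by at least 2-fold, and none rose (0 higher with edgeR, DESeq2 and limma-voom, also at an unadjusted p under 0.05), with a median of -1.08. After HSPA5, the largest falls were those of HERPUD1 (-2.45), SDF2L1 (-1.96) and HYOU1 (-1.59), an ER membrane protein of degradation, an ER stress-induced luminal protein and an ER chaperone. Of 10 genes of the PERK and ATF4 branch, 9 fell, 8 by at least 2-fold, and VLDLR rose by 0.83, with a median of -1.99. CHAC1 (-2.94), DDIT3 (-2.82), ASNS (-2.58) and TRIB3 (-2.33) fell most. DDIT3 encodes CHOP, a factor known to induce ERO1A. DDIT3 fell while ERO1A rose, and whether these changes are linked was not tested.

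Other hypoxia-inducible genes, a list that did not include ERO1A, were more often lower than higher. Of 12 tested, 6 fell and 2 rose, with a median of -0.25. VEGFA was called lower, from 114 ± 8.66 to 44.3 ± 6.83 CPM (SD, n = 3), a log2 fold change of -1.36 (edgeR adjusted p = 0.000222). The genes of the list that rose were KDM3A (0.995) and PFKFB4 (0.98), both just inside the 2-fold limit. Secreted and surface proteins, listed as possible clients of the isomerases, were also split, with 7 of 15 tested genes higher and 5 lower. TFRC, the transferrin receptor, was called higher (2.01) and EGFR, a growth factor receptor, lower (-1.38). Among all genes tested, 19.8% passed the test as lower and 21% as higher, and 10.1% and 5.57% did so with the 2-fold limit. The lists share some genes, among them HSPA5, CRELD2, P4HA1 and P4HA2, so they are not separate groups. These gene lists were chosen with earlier results of these data known, so their counts describe the samples and are not independent evidence.

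**Figure D5:**
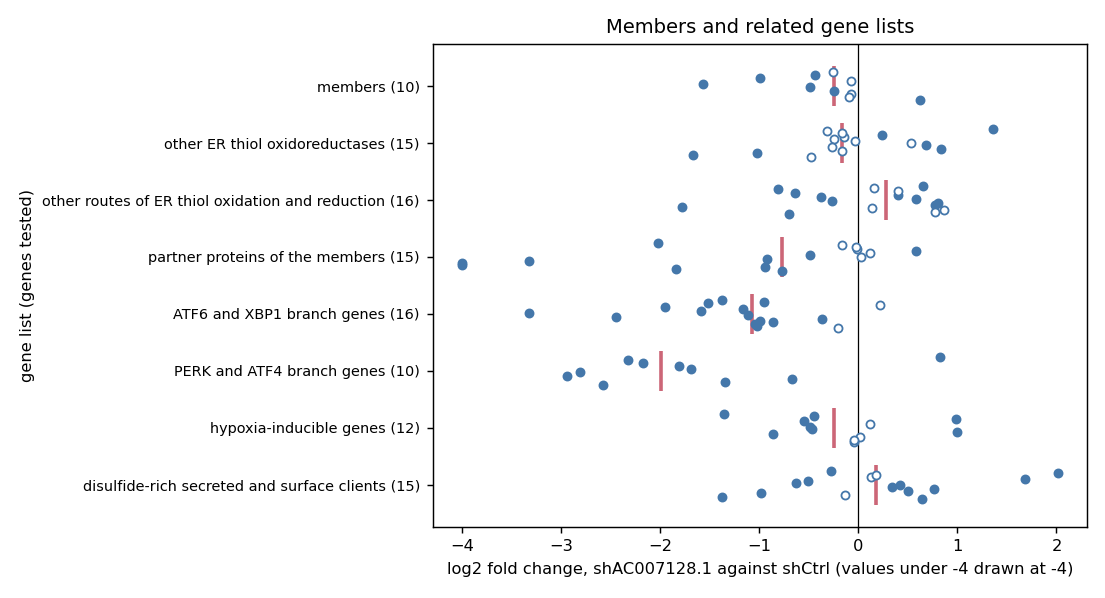
Log2 fold change of each tested gene in the 10 isomerase and oxidase genes ("members") and in 7 related lists, filled where the adjusted p was at most 0.05, with a red line at each list's median, and the lowest values of the partner list are drawn at the left end of the axis. The ATF6 and XBP1 and the PERK and ATF4 lists lie mostly left of 0, at medians of -1.08 and -1.99, whereas the 10 genes have a median of -0.25.

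Over the 6 samples, the protein-coding genes whose log2 CPM followed that of P4HB most closely, among 6702 genes with a mean of at least 5, were PRRC2A, FBXO31 and HEBP1 (Pearson's r of 0.991, 0.989 and 0.989). For ERO1A they were CENPU, PLS3 and NHLRC3, each at 0.999. With 6 samples in 2 groups such likeness is common, since 85 genes reached 0.95 for P4HB and 1293 for ERO1A.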

How the data were processed

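RNA of 6 KYSE150 samples (3 shCtrl, 3 shAC007128.1) was sequenced by the authors from poly-A-selected TruSeq paired-end libraries on an Illumina instrument. Per the paper's methods, reads were filtered and mapped to hg38 with TopHat v2.0.9, whereas the labels list TopHat2 2.0.6, CASAVA 1.8 and, besides GRCh38, mm10. The authors deposited unnormalized estimated counts for each Ensembl gene, all of them whole. The counting program, annotation release and use of strand are not given in the sources used here. Low counts pile up at multiples of 4, so a count may not be 1 fragment. Columns were mapped by titles and descriptions, and 0 sample columns were left unmapped. The labels' treatment text names shAC007128.1 for every sample, so groups came from the descriptions (shCtrl) and titles (shAC007128.1).

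Gene models came from GENCODE v44 (89.9% of identifiers found) and promoter windows from RefSeq. Counts were filtered with filterByExpr (47886 identifiers removed), TMM-scaled and compared by edgeR 4.0.16 (quasi-likelihood, Benjamini-Hochberg over 19254 genes) in R 4.3.3. Each SE is the size of the fold change, in log2, divided by the root of F. Calls needed an adjusted p of at most 0.05 and 2-fold. A level of 3 counts, 0.0382 to 0.0538 CPM, was taken as the floor. It covers counting error only and takes 1 count as 1 fragment, which may not hold. The tests were also run on simulated counts with a small set of genes changed equally up and down. Far fewer genes changed there than in these data, so it does not check scaling or error rates here. Alternatives were DESeq2 1.42.0, limma-voom (limma 3.58.1), other scaling and filters, a replicate block, each replicate left out, thinning, counts divided by 4 and, after seeing the data, summing genes that share reads and canonical lengths. Named genes are the 10 genes, AC007128.1, at most 4 called genes each way per list, and the 3 profiles most like P4HB and ERO1A. Others were named after their values were seen: CANX, PTPRC, MS4A1, DCN, CD3E, COL1A1, PDGFRB, CD68, TMX1, TMX2, TMX3, TMX4, PRDX4, QSOX1 and QSOX2. So were TXNRD1, VKORC1L1, CALR, P4HA1, P4HA2, VLDLR, KDM3A and PFKFB4. Protein sequence features were not analysed here. Some genes of the lists are counted but not reported here by name. The genes and lists were chosen with earlier results of these data known.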

Additional observations from a re-analysis of the deposited data

How the results depend on the processing

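The number of the 10 genes past the test, 5 lower and 1 higher, was 4 to 6 and 1 under all alternatives. The number called lower, 1, became 2 when PDIA6 crossed the 2-fold limit, in DESeq2, under median-of-ratios or library-size scaling, without a filter, under a minimum of 10 counts, after division of counts by 4 and at a 1.5-fold limit, and it was 1 to 2 with each replicate left out. The 1.5-fold limit also gave 1 gene called higher, ERO1A, in place of 0. P4HB did not pass the test with the replicate block (log2 fold change -0.25, edgeR adjusted p = 0.0634), which left the number called lower at 1 and changed no other call. The labels do not say that replicate numbers pair samples, and deviations of same-numbered samples correlated at only 0.0306, -0.0254 and -0.0299. With each replicate left out, log2 fold changes crossed 0 for PDIA5 (-0.15 to 0.0046), ERP44 (-0.22 to 0.0063), ERO1B (-0.22 to 0.0153) and TXNDC5 (-1.16 to 0.31), and the cause was not tested. Summed TPM depended on the length used. For the isomerases it was 1720 in shCtrl and 883 in shAC007128.1 cells over the union of exons, 2065 and 1130 over the longest transcript and 2073 and 1193 over the canonical transcript. For the oxidases it was 38.2 and 52.5, then 48.1 and 63.8, then 46.5 and 58.9. Thinned libraries changed no call. The 10 genes had 1603 to 56770 counts per sample.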
